A study of Mus musculus with 3 samples.

Results

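The sites described here are CCGG sites in the first introns of protein-coding genes, beyond the promoters, in mouse embryonic stem cells (ESCs) before and after differentiation. A site was included if it was deposited as a methylated CCGG site in at least 1 library, lay on an autosome in the first intron of a protein-coding transcript, overlapped no exon and was over 3 kb from any annotated transcription start site. This gave 97555 of the 969569 autosomal CCGG sites (10.1%), in 7561 genes. Annotation was GENCODE M21 basic on GRCm38, with 72109 autosomal start sites. Because a site had to be listed at least once, the sites that were listed in none of the libraries are given only as a share of the CCGG motifs in the same introns.

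The 3 libraries came from E14Tg2A, an established mouse ESC line. The undifferentiated cells were kept with leukemia inhibitory factor (LIF; day 0). The untreated cells were on day 7 of differentiation, which was induced by removing LIF and adding retinoic acid. The treated cells had the same 7 days of differentiation with 3 mM pargyline, an inhibitor of the histone demethylase LSD1. All 3 came from the same line, with no genetic change named between them, and no expression was measured in them, so cell identity could not be checked against marker genes. Each condition had a single library without replicates, and no test was made.

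The first intron is usually the longest intron of a gene, and in mammals it holds many of the enhancers through which a gene is regulated. Enhancers mostly lie in DNA of low or intermediate CpG content and tend to lose DNA methylation when active and to gain it when they are shut down. In ESC differentiation, LSD1 removes histone H3K4 methylation from enhancers of pluripotency genes, and the DNA methyltransferase DNMT3A then methylates them. In MethylRAD sequencing, the enzyme FspEI recognises a methylated or hydroxymethylated cytosine and cuts out a fragment of about 32 bp around it. A fragment is thus released only where a cytosine carries either mark in some cells, and the marks cannot be told apart. The authors searched the reads for the CCGG pattern and counted reads at each match. A CCGG site without a mark can therefore have reads from a fragment released by a marked neighbour. More cells methylated at a site and more reads per methylated cell cannot be told apart in such counts.

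Reference sequence is shown for the sites that carried the local changes described below, chosen as the first cluster of changed sites in each direction of each comparison for which sequence could be shown, and for the cluster of Slc9a3r1, which was chosen after its values were seen. Each line gives the GRCm38 plus strand, 5′ to 3′, over called sites at most 300 bp apart, with 14 bases on each side. Capitals mark the CCGG sites that changed at least 3-fold between the libraries compared, and a CCGG site in lower case was not called.
Cdh23 gained reads from the undifferentiated to the treated library at these 3 sites. Cdh23, chr10:60691825-60691990: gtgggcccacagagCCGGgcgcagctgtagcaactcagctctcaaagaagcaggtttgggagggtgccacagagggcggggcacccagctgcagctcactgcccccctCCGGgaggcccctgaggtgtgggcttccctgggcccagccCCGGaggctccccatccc
Slc9a3r1 gained reads in the treated library. Slc9a3r1, chr11:115173623-115173879: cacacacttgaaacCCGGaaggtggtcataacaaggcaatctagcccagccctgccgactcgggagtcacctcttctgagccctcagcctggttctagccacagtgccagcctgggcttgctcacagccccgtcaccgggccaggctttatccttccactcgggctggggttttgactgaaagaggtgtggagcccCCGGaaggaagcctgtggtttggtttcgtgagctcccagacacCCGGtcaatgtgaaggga
Barhl1 gained reads from the untreated to the treated library. Barhl1, chr2:28912533-28912601: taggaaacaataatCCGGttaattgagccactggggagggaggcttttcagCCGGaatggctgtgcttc
Ptk7 lost reads from the untreated to the treated library. Ptk7, chr17:46609743-46610012: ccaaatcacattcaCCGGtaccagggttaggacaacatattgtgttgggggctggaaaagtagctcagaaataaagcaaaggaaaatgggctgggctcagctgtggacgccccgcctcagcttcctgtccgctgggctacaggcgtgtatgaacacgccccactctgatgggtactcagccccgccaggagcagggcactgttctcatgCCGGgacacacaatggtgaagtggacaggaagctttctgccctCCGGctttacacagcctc
Pitpnc1 gained reads from the undifferentiated to the untreated library. Pitpnc1, chr11:107382130-107382161: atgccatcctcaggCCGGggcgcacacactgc
Pmepa1 lost reads from the undifferentiated to the treated library. Pmepa1, chr2:173270440-173270686: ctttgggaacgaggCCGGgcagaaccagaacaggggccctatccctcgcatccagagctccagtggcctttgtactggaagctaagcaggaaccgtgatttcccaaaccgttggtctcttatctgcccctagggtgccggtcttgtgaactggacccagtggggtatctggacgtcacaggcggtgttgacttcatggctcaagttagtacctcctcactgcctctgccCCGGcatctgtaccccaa
Gm20388 lost reads from the undifferentiated to the untreated library. Gm20388, chr8:120407805-120407836: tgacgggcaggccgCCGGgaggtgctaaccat

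The autosomal CCGG sites held 30438782 reads in the undifferentiated library, 35286914 in the untreated library and 24778383 with pargyline. The deposited tables start at 5 reads per site, so an unlisted site can have had up to 4 reads. Ratios of single sites were therefore computed with unlisted sites at 4 reads, which makes such a ratio a lower bound of the change. Sums over a gene took unlisted sites at 0, so that ratios of sums are not bounds, and their value with unlisted sites at 4 reads is given for some of the genes named. All ratios are relative to the median log2 ratio of the 703057 autosomal CCGG sites listed in all 3 libraries, which was 0.29 for untreated against undifferentiated, -0.22 for treated against undifferentiated and -0.50 for treated against untreated. Intervals are exact 95% binomial intervals that cover counting error only, since PCR copies of a fragment are counted as separate reads.

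CCGG motifs of first introns beyond promoters were listed as often as those of other introns, and more often than those between genes. Of their 128410 CCGG motifs, 67.3% were listed in the undifferentiated library (86446 sites), 66.9% in the untreated library (85958) and 66.8% in the treated library (85721). The corresponding shares of the 305015 motifs in other introns over 3 kb from a start were 67.5%, 67.3% and 66.7%. Between genes, where listed sites lay more often in masked repeats (19.9% against 13.9% in first introns), they were 51.2%, 50.9% and 51.1%, and over all autosomal motifs 54.4%, 55.1% and 55.7%. A further 24.0% of the motifs in first introns were listed in none of the libraries. The median listed site had 28 reads in the undifferentiated library (quartiles 14 and 50), 32 in the untreated (15 and 59) and 25 in the treated library (13 and 41). The part of repeats in the lower share between genes was not tested. All 3 libraries thus listed nearly the same share of first-intron motifs, and the medians followed the order of the library totals.

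Most first-intron sites were listed in every library. Of the 97555 sites, 73831 were listed in all 3 (75.7%, 75.4 to 76.0), with a median of 32 reads in the undifferentiated library, 38 in the untreated library and 28 with pargyline. Sites listed on day 7 with and without pargyline but not before differentiation numbered 5425 (5.56%), and sites listed in the undifferentiated library alone numbered 5132 (5.26%). The treated library alone listed 3547 sites (3.64%) and the untreated library alone 2137 (2.19%). The sites listed in the undifferentiated and untreated libraries only numbered 4565 (4.68%), and those in the undifferentiated and treated libraries only 2918 (2.99%). These partly listed sites were shallow, with medians of 7 to 14 reads where they were listed. Of the 3547 sites of the treated library alone, 186 had at least 20 reads there, and of the 5132 sites of the undifferentiated library alone, 1010 did. Over all autosomal CCGG sites, the share listed in the treated library alone was higher (5.43%), and the share listed in all 3 was lower (72.5%). Other introns were close to first introns in both shares, with 3.46% and 76.5%.

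**Figure D1:**
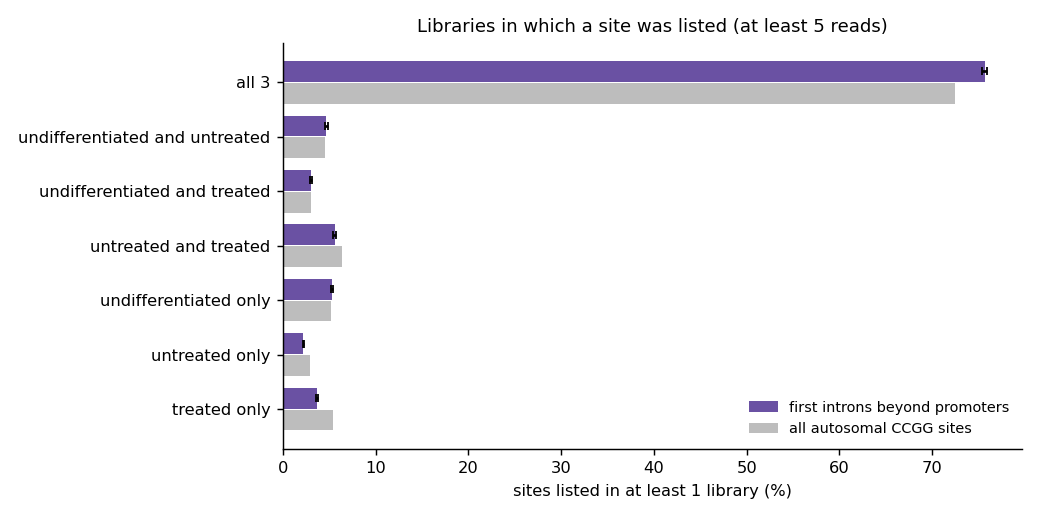
Share of the sites listed in at least 1 library (x axis, %) for each combination of the 3 libraries (y axis), in first introns beyond promoters (purple, with exact 95% intervals) and over all autosomal CCGG sites (grey). The bar of sites listed in all 3 libraries reaches 75.7% in first introns and 72.5% over all autosomal sites, and the treated-only bar is shorter in first introns (3.64% against 5.43%).

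Over all motifs the listed share fell with distance from the start site in each of the 3 libraries. Between 3 and 5 kb from the start of the transcript, 70.5% of 11923 motifs were listed before differentiation, 71.2% in the untreated library and 71.5% with pargyline. Between 20 and 50 kb the shares of 32768 motifs were 67.4%, 66.9% and 66.6%. Between 100 and 200 kb, where the shares were lowest, 60.7%, 59.6% and 59.9% of 10006 motifs were listed, and over 200 kb 63.2%, 63.5% and 63.7% of 9260 motifs. Gm20388, a gene model whose first intron runs across other genes, held 3144 sites up to 4315 kb from its start. Its part in the bin over 200 kb was not separated. The intervals at 3 to 5 kb and at 100 to 200 kb did not overlap in any of the libraries. The median reads of listed sites stayed flat, at 27 to 28 reads in the undifferentiated library, 30 to 33 in the untreated and 23 to 26 in the treated library. Motifs outside windows of low CpG content became more common with distance, from 5.96% at 3 to 5 kb to 11.2% at 100 to 200 kb. Within low CpG windows alone the listed share in the undifferentiated library still went from 72.3% to 65.3%. Outside the repeats that are masked in the reference it did not fall, with 76.1% of 9318 motifs listed at 3 to 5 kb, 78.7% of 24699 at 20 to 50 kb and 77.7% of 6931 at 100 to 200 kb. The untreated and treated libraries likewise stayed between 76.1% and 78.4% outside repeats. The lower share far from the start was thus not seen among motifs outside masked repeats.

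Motifs just inside and just outside the limit of 3 kb had shares of about the same size. Between 2 and 3 kb from the nearest start, 68.9% of 12105 motifs were listed before differentiation, 68.1% in the untreated library and 69.2% with pargyline. Between 3 and 4 kb, the shares of 9825 motifs were 69.7%, 70.1% and 70.3%. The 2 intervals overlapped in the undifferentiated and treated libraries but not in the untreated one (67.26 to 68.93 against 69.22 to 71.04).

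**Figure D2:**
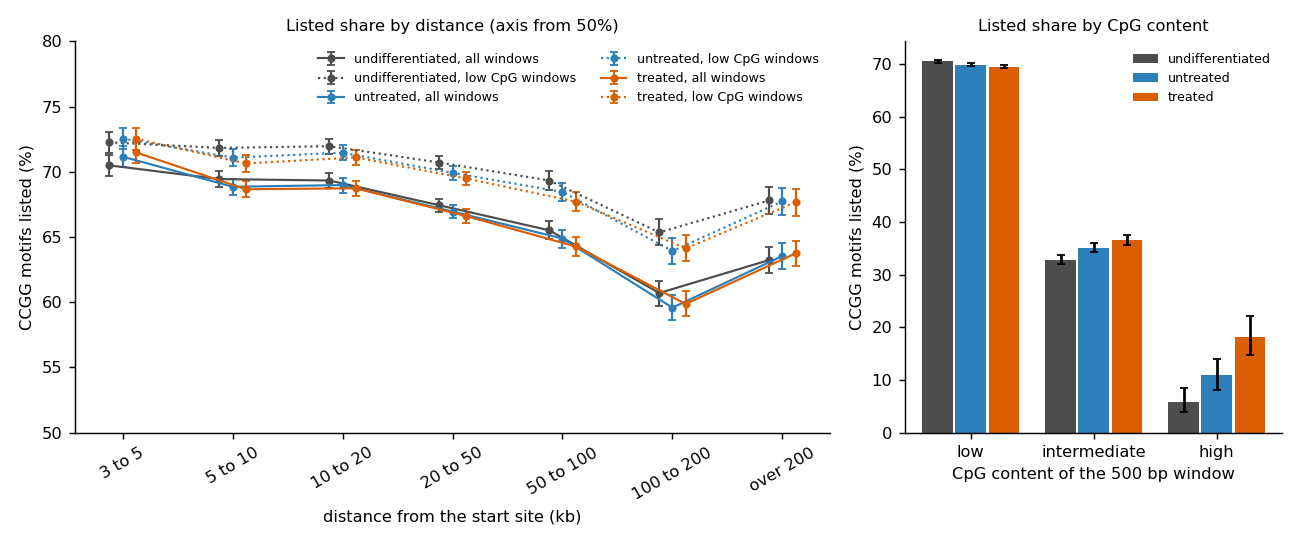
Share of CCGG motifs listed (y axes, %) by distance from the start site in kb (left, y axis from 50%) and by CpG content of the surrounding 500 bp (right), for the 3 libraries, with exact 95% intervals. The lines of the 3 libraries run together and are lowest at 100 to 200 kb, whereas in windows of high CpG content the bars step up from 5.86% to 10.8% and 18.2%.

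The libraries differed by the CpG content around the sites. A window of 500 bp centred on the site was called high in CpG if its GC content exceeded 55% and its ratio of observed to expected CpGs exceeded 0.75, and low if that ratio was below 0.48. Low CpG windows, which held 95.6% of the 97555 sites, had listed shares of 70.5% in the undifferentiated library, 69.9% in the untreated library and 69.5% with pargyline. In intermediate windows (10020 motifs) the order was turned around, with 32.8%, 35.1% and 36.6% listed. In high CpG windows, 27 of 461 motifs were listed in the undifferentiated library (5.86%, 3.895 to 8.41), 50 in the untreated (10.8%, 8.16 to 14.05) and 84 in the treated library (18.2%, 14.8 to 22.05). The interval of the treated library overlapped neither of the others, whereas those of the undifferentiated and the untreated library overlapped.

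The 107 listed sites in high CpG windows lay in 47 genes. Of these sites, 51 were listed in the treated library alone and 2 in the undifferentiated library alone, and 17 were listed in all 3. More sites were listed in the treated than in the undifferentiated library in 32 of the genes, and fewer in 4. Nfix, a nuclear factor I transcription factor, had the most. Of its 8 such sites, 1 was listed in the undifferentiated library with 5 reads, none in the untreated library and all 8 in the treated library with 82 reads. Fgf12, an intracellular fibroblast growth factor homologous factor, had 0, 3 and 4 of its 6 sites listed in the undifferentiated, untreated and treated libraries. Lims2, a LIM domain adaptor at focal adhesions, went from 3 and 3 to 5 of 5 sites with 50, 56 and 59 reads. Emx1 and Alx4, both homeodomain transcription factors, each had 2 such sites. Those of Emx1 were listed only in the treated library (17 reads), and those of Alx4 only in the day 7 libraries, with 15 and 29 reads. The median listed site in these windows had 8 reads in each library, close to the minimum of 5, and these genes were named after their values were seen. Motifs of these genes that no library listed are not counted among their sites.

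Repeat sequence and the GC content of the released fragment also moved with the values. In repeats marked in the reference by RefSeq, 35.3% to 35.8% of 32017 motifs were listed, against 77.1% to 77.9% of the 96393 other motifs, and only uniquely mapped reads had been kept. Fragments of 32 bp with fewer than 14 G or C bases were higher in the treated library, with a median log2 ratio of 0.67 against the undifferentiated and 0.50 against the untreated library. Fragments with 17 to 19 G or C bases had -0.18 and -0.08, and fragments with over 22 had 0.49 and 0.31. In the untreated library the medians of the same classes against the undifferentiated library were 0.09, -0.06 and 0.20. The treated library thus differed from the other two at both ends of the GC range of the fragments, and the part of this in the results below was not tested site by site. Clusters that were not found with scaling within classes of equal fragment GC are named with the clusters.

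The change in reads at first-intron sites was close to that of the genome as a whole. A site was called changed if its scaled reads differed at least 3-fold between 2 libraries and reached at least 20 reads in the higher one. Between the undifferentiated and the untreated library, 3614 of 64137 sites with enough reads were called higher (5.63%) and 7775 lower (12.1%), where the background over all 603002 autosomal CCGG sites was 5.72% and 11.9%. In the treated library against the undifferentiated one, 7437 of 68124 sites were called higher (10.9%, background 11.3%) and 8397 lower (12.3%, background 12.1%). From the untreated to the treated library, 3223 of 66004 sites were called higher (4.88%, background 5.27%) and 1020 lower (1.55%, background 1.54%). The shares of called sites in first introns therefore lay near the background in both directions. The 2 comparisons with the undifferentiated library share that library, and the 2 with the treated library share the treated one. The median log2 ratio over the 73831 sites listed in all 3 libraries was -0.01, -0.02 and 0.00 in the 3 comparisons, with quartiles of -0.64 and 0.58, -0.70 and 0.71, and -0.42 and 0.50.

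The balance of higher and lower calls depended on the scale. With the deposited RPM values, which divide by all mapped reads of a library, 2089 sites were called higher and 9719 lower from the undifferentiated to the untreated library. From the undifferentiated to the treated library the numbers were 2545 and 15439, and from the untreated to the treated library 1305 and 2413. In that last comparison the direction of the majority turned around. On the RPM scale the median log2 ratio of first-intron sites was -0.25, -0.64 and -0.37 in the 3 comparisons, and all other values below are relative to the median of all autosomal CCGG sites.

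**Figure D3:**
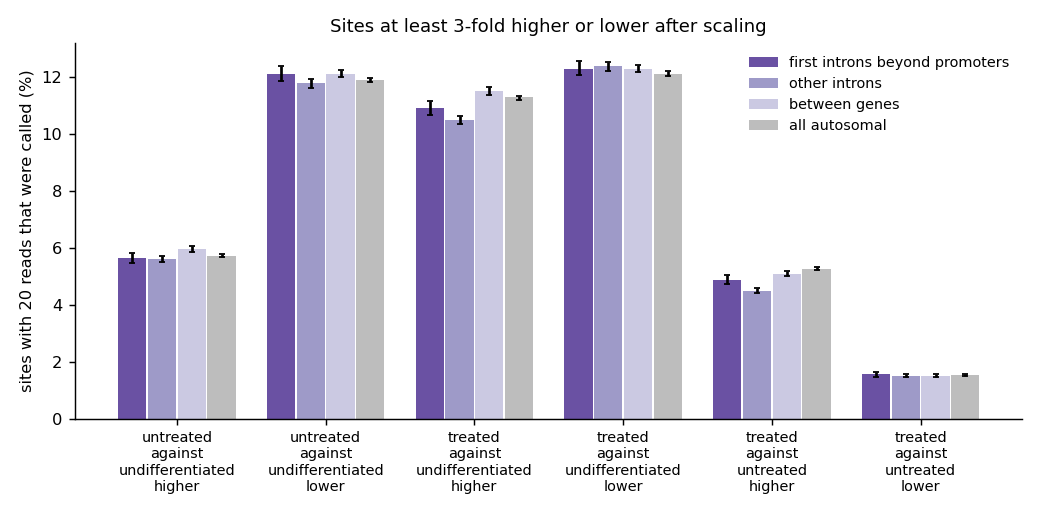
Percentage of sites with at least 20 scaled reads in the higher library (y axis) that were called higher or lower in each comparison (x axis), for first introns beyond promoters, other introns, DNA between genes and all autosomal CCGG sites. Bars with exact 95% intervals are of nearly the same height within each group, at 12.1% and 11.9% for lower calls from the undifferentiated to the untreated library.

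The share of called sites differed little between distances from the start site. Between the undifferentiated and the untreated library, 5.19% to 6.24% of sites were called higher and 11.5% to 12.5% lower in the 7 distance bins from 3 kb to over 200 kb. For the treated library against the undifferentiated one these ranges were 10.6% to 12.4% and 11.8% to 13.05%. From the untreated to the treated library, 4.47% to 5.40% were called higher. The intervals at 3 to 5 kb (4.79 to 5.91) and at over 200 kb (4.04 to 5.30) overlapped, whereas those of the highest bin, 5 to 10 kb (4.99 to 5.84), and the lowest, 10 to 20 kb (4.13 to 4.83), did not. The higher calls of the treated library differed more by the GC content of the fragment than by distance. Against the undifferentiated library 36.8% of sites with fewer than 14 G or C bases and 23.4% with over 22 were called higher, where 6.72% with 17 to 19 were. Against the untreated library the shares were 22.5%, 12.3% and 2.62%. They also differed by CpG content, whose overlap with fragment GC was not tested. In intermediate windows, 14.7% of 2421 sites were called higher against the undifferentiated library and 7.67% of 2518 against the untreated library, where low CpG windows had 10.8% and 4.76%. In high CpG windows, 9 of 17 sites were called higher from the untreated to the treated library and 0 lower.

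Changes at neighbouring sites were only weakly correlated beyond the length of a fragment. Across pairs of adjacent sites listed in all 3 libraries and up to 16 bp apart, which are read from the same fragments, the log2 ratios had Pearson correlations of 0.77 to 0.81 in the 3 comparisons (510 pairs). At 17 to 32 bp they were 0.09 to 0.14 (679 pairs), and at over 100 and up to 1000 bp 0.01 to 0.02 (21222 pairs). These are descriptions over pairs of sites that share a library and a local base composition. Outside low CpG windows the values at over 100 and up to 1000 bp were larger, with 0.27, 0.19 and 0.18 over 242 pairs. The closer pairs there, 33 to 100 bp apart, had only 0.03, 0.08 and 0.14 (152 pairs), and pairs over 1000 and up to 5000 bp apart had -0.15, -0.22 and 0.06 (133 pairs), so the values did not follow the spacing. Next to a site called higher from the untreated to the treated library, 33 to 1000 bp away, 7.85% of sites were called higher as well, against 4.88% of all. Outside low CpG windows the same share was 30.3% (20 of 66) against 7.97% of all such sites. In these shares each pair was counted from both of its sites, and a site with a neighbour on each side entered more than once. The counts are therefore not counts of independent sites. For higher calls from the undifferentiated to the treated library it was 32.94% (28 of 85) against 14.84%. Next to a site called lower from the undifferentiated to the untreated library, 12.96% were called lower, against 12.1% of all, and outside low CpG windows 22.73% (10 of 44) against 10.05%.

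Runs of change within 1 kb were rare. A cluster was defined as at least 3 called positions of 1 direction, each within 1 kb of the next, with no opposite call between them and with sites up to 32 bp apart counted as 1 position. There were 70 clusters in 57 genes over the 3 comparisons, 63 of them with the minimum of 3 positions. From the undifferentiated to the untreated library, 3 clusters were higher and 20 lower. Between the undifferentiated and the treated library, 19 were higher and 18 lower, and from the untreated to the treated library 9 were higher and 1 was lower. Clusters held 0.249% to 0.993% of the called sites. Other introns, with 231309 listed sites, had 7 higher and 39 lower clusters from the undifferentiated to the untreated library, and 52 and 50 to the treated library. Between the untreated and the treated library they had 9 higher clusters, the same number as the 97555 sites of first introns. The clusters spanned medians of 242 to 1182 bp and 4 of the 9 that were higher from the untreated to the treated library lay under 10 kb from the start.

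The largest cluster was in Onecut2, a onecut homeodomain transcription factor of liver and neural development. It lay 3.3 to 6.0 kb downstream of the start, and 10 of its 15 CCGG motifs were listed in at least 1 library. The undifferentiated library listed 1 of these 10 sites with 7 reads, the untreated library 2 with 23 reads and the treated library all 10 with 194 reads. The highest of the 10 sites had 33 reads in the treated library, 12 in the untreated library and was unlisted in the undifferentiated library. Every listed site of the span was highest in the treated library, and 8 of them were listed there alone. The span was itself picked for higher reads in that library, and with only sites listed in both libraries no cluster was found there. From the untreated to the treated library, 7 positions were called higher with a median log2 ratio of 2.67, and 6 were called against the undifferentiated library, with a median of 2.47. The whole first intron of Onecut2 did not follow, with 996, 954 and 820 reads at 31 sites in the undifferentiated, untreated and treated libraries. The log2 ratio of these sums was -0.06 from the undifferentiated to the treated library and 0.28 from the untreated to the treated library.

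The next clusters that were higher from the untreated to the treated library, ordered by called positions and then by summed ratio, lay in Barhl1, Slc9a3r1 and Nfix. Barhl1, a homeodomain transcription factor of the nervous system, had 4 called positions within 774 bp on chromosome 2 (28911814 to 28912587), 3.8 to 4.6 kb from the start. The 7 sites of the span had 94 reads in the undifferentiated library, 106 in the untreated library and 205 with pargyline. The called sites shown above had 9, 0 and 16 reads and 5, 13 and 31 reads in the same order, with 0 standing for unlisted. Slc9a3r1, a scaffold protein of the apical membrane, had 3 called sites within 229 bp (chromosome 11, 115173637 to 115173865), 10.3 kb from the start. They had 0, 7 and 19 reads, 0, 9 and 41 reads, and 0, 0 and 39 reads in the undifferentiated, untreated and treated libraries. The CCGG site in lower case between them, at 115173758, had 0, 8 and 15 reads. Nfix had 3 called positions within 1162 bp of chromosome 8 (84784317 to 84785478), with 13 listed sites in the span. Of the 13, the treated library listed every site with 152 reads in all, whereas the undifferentiated library had 5 reads and the untreated library 8 reads, each at 1 site. The 3 called sites had 15, 23 and 20 reads in the treated library and were unlisted in both others.

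Shh, the morphogen sonic hedgehog, had 3 called positions 4.2 to 5.1 kb from its start, with 55 reads in the undifferentiated library, 18 in the untreated library and 90 with pargyline. There the untreated library was lowest, and the same was true of Trio, a guanine nucleotide exchange factor, with 61, 17 and 89 reads. Cstad had 6, 0 and 55 reads at its called sites, Zfp395 26, 14 and 61 reads, and Gm4881 23, 17 and 62 reads. Over all listed sites of these spans, called or not, the differences were smaller, with 98, 74 and 125 reads in Cstad, 124, 147 and 125 in Zfp395, 109, 92 and 148 in Gm4881 and 82, 61 and 150 in Shh. The 1 cluster that was lower from the untreated to the treated library lay in Ptk7, a receptor pseudokinase of planar cell polarity, 19.5 kb from the start on chromosome 17. Its 3 sites had 14, 24 and 0 reads, 75, 68 and 8 reads, and 17, 36 and 5 reads in the undifferentiated, untreated and treated libraries. The treated library was thus lowest at all 3 sites of Ptk7. Of the 9 higher clusters only those of Onecut2 and Trio were also found with the RPM values. With counts thinned to the smallest library total only that of Trio was found, neither the Onecut2 nor the Ptk7 cluster was, and the cluster of Cstad was not found with scaling within fragment GC. Shh, Trio, Cstad, Zfp395 and Gm4881 were named after their values were seen.

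In the treated library against the undifferentiated one, the higher clusters that followed Onecut2 in the same order were those of Cdh23, Slc9a3r1 and Tead3, of which the last 2 had the minimum of 3 positions. Cdh23, a cadherin of the tip links of hair cells, had 4 called sites within 370 bp of chromosome 10 (60691839 to 60692208). They had 6, 17 and 24 reads, 0, 9 and 25 reads, 0, 31 and 20 reads, and 12, 62 and 43 reads in the undifferentiated, untreated and treated libraries. At Cdh23 both day 7 libraries were above the undifferentiated one at every site. The fragments of these sites had a median of 23.5 G or C bases, and with scaling within fragment GC no cluster was found there. Tead3, a TEA domain transcription factor of the Hippo pathway, had 8, 29 and 84 reads at 3 called sites 4.5 to 5.9 kb from the start, and 14, 41 and 96 with the uncalled site between them. With the RPM values none of these 19 higher clusters was found and the lower clusters numbered 122. With thinned counts the higher clusters of Onecut2, Slc9a3r1, Barhl1 and Gse1 were among those not found. With scaling within fragment GC the clusters of Barhl1, Parvb, Gse1, Btbd11, Pde8b and 2 in Gm20388 were not found either.

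Lower clusters on day 7 lay in low CpG windows about as often as first-intron sites at large, of which 95.6% did. From the undifferentiated to the treated library none of the 18 was outside such windows, at a median of 11.9 kb, and from the undifferentiated to the untreated library 1 of 20 was, at a median of 20.4 kb. Of the 19 higher clusters of the treated library, 2 were outside. Pmepa1, a negative regulator of TGF-beta signalling, had 4 called positions 5.6 to 6.7 kb from the start, with 235, 128 and 54 reads in the undifferentiated, untreated and treated libraries. Its called sites had 57, 14 and 12 reads, 66, 40 and 17 reads, 45, 15 and 7 reads, and 67, 59 and 18 reads. An uncalled site between them had 51, 31 and 22 reads, the same order of the 3 libraries. Tspan15, a tetraspanin, had 374, 105 and 51 reads at 3 positions, and Rusc2 132, 57 and 14 reads. In read counts the treated library was lowest and the untreated one between in each of these 3 genes.

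Further lower clusters of the treated library lay in Klf9, a Krüppel-like transcription factor, and in Smad1, the effector of bone morphogenetic protein signalling. The 3 sites of Klf9, 21.5 to 22.4 kb from the start, had 42, 8 and 0 reads, 41, 13 and 7 reads, and 39, 19 and 9 reads. Smad1 had 184, 75 and 31 reads at 3 positions. Slc38a4, an amino acid transporter gene that is imprinted in the mouse, had 86, 70 and 5 reads at 3 positions 5.9 to 6.4 kb from the start. Its called sites had 28, 43 and 0 reads, 36, 22 and 5 reads, and 22, 5 and 0 reads, and all 6 listed sites of the span together had 114, 89 and 14 reads. Klf9, Smad1 and Slc38a4 were named after their values were seen. The largest drop from the undifferentiated to the untreated library by summed ratio was in Prkcz, an atypical protein kinase C, whose 4 called sites, at 3 positions, had 273, 46 and 72 reads (295, 66 and 86 over the span). St3gal2, a sialyltransferase, had 143, 13 and 19 reads at 3 positions, but an uncalled site between them had 57, 66 and 54 reads, which made 200, 79 and 73 reads over the span. A cluster of 4 positions with 146, 51 and 26 reads was assigned to Gm20388, a gene model whose first intron spans 4384 kb of chromosome 8 and runs across other genes. With thinned counts the clusters of Slc38a4, St3gal2 and this one were not found. With scaling within fragment GC the lower clusters of Mpzl1, Galnt15 and Fmnl3 in the treated library, and of Mpzl1 and a further one in Gm20388 in the untreated library, were not found, and they are named for this.

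The 3 clusters that were higher from the undifferentiated to the untreated library lay in Pitpnc1, Dock1 and Sorcs2. Pitpnc1, a phosphatidylinositol transfer protein, had 38, 194 and 126 reads at 3 positions 87.7 to 88.6 kb from the start, and 72, 230 and 141 over all 5 listed sites of the span. Dock1, a guanine nucleotide exchange factor of Rac, had 22, 131 and 82 reads, and Sorcs2, a receptor of the sortilin family, 28, 118 and 108 reads. Both day 7 libraries had more reads than the undifferentiated one in all 3, and none of the 3 clusters was found with the RPM values, nor that of Dock1 with thinned counts. In Gse1, which encodes a protein of LSD1 complexes, a lower cluster of the untreated library overlapped a higher cluster of the treated library, each against the undifferentiated one. The 3 sites called lower from the undifferentiated to the untreated library, within 1011 bp, had 23, 9 and 15 reads, 44, 17 and 46 reads, and 110, 38 and 9 reads. The 3 sites called higher from the undifferentiated to the treated library, within 427 bp that overlap this span, had 0, 7 and 18 reads, 0, 17 and 19 reads, and 9, 30 and 29 reads. These lower and higher calls come from different comparisons, and Gse1 was named here after its values were seen.

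**Figure D4:**
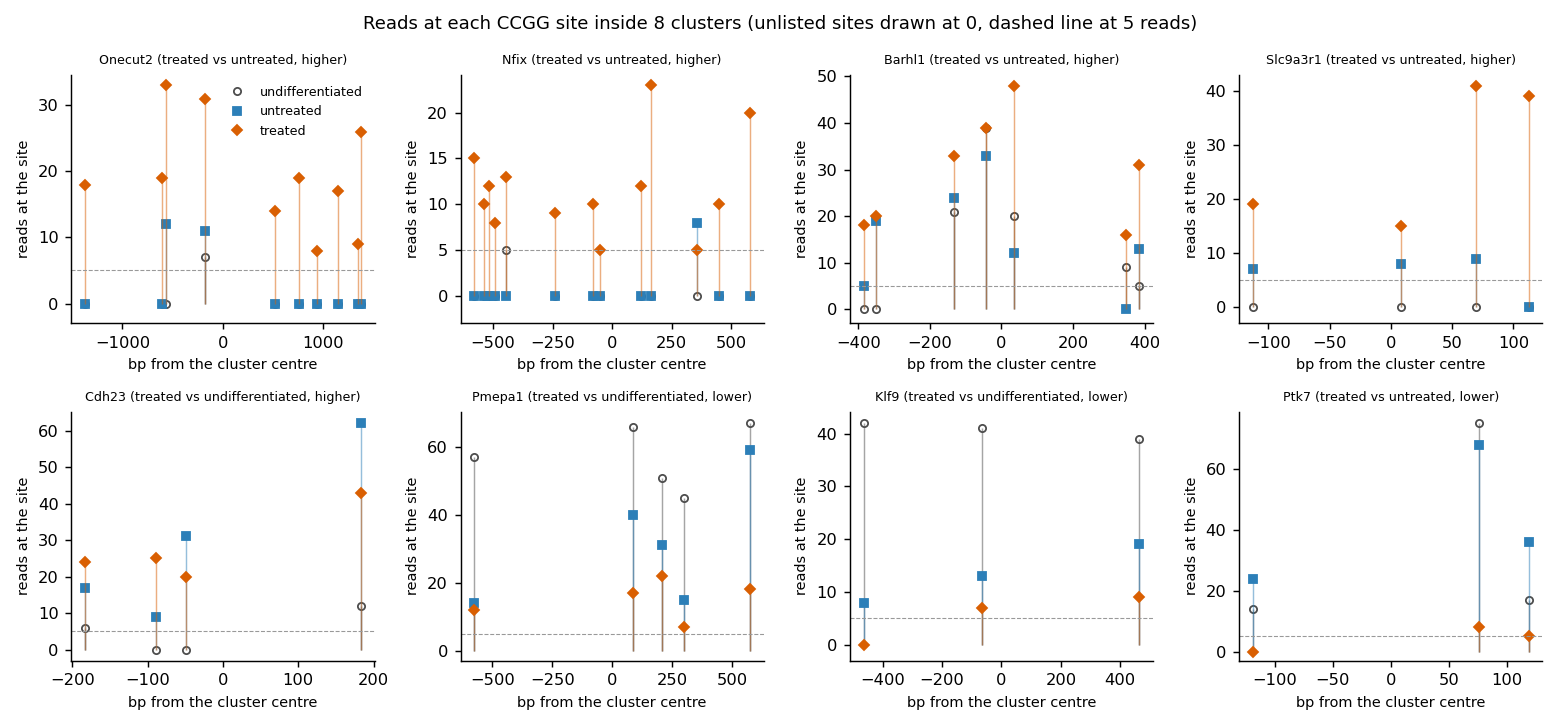
Reads at each listed CCGG site (y axes) against its distance in bp from the centre of the cluster (x axes) in 8 clusters, with the undifferentiated library as open circles, the untreated as blue squares and the treated as orange diamonds. In Onecut2 and Nfix nearly all circles and squares lie at 0 (unlisted) below orange diamonds of 5 to 33 reads, whereas in Klf9 the circles (39 to 42 reads) lie above both day 7 libraries.

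Summed over each first intron, changes were small. The reads of all sites of a gene were summed per library in the 2464 genes with at least 10 sites and 200 reads. The median log2 ratio of these sums was -0.11 from the undifferentiated to the untreated library, -0.11 to the treated library and -0.01 from the untreated to the treated library. From the 5th to the 95th percentile the ratios ran from -0.56 to 0.28, from -0.56 to 0.37 and from -0.29 to 0.35. At least 2-fold higher sums were found in 0, 6 and 4 genes, and at least 2-fold lower sums in 5, 7 and 0 genes. The sites were spread unevenly, with a median of 5 sites per gene, 1364 genes with 1 site and 51.6% of all sites in the top 10% of genes. Gm20388 had 3144 sites, Asic2, an acid-sensing ion channel, 437, and Rora, a nuclear receptor, 331. Ntm, a neuronal adhesion molecule, had 296, and Ank3, ankyrin-G, 284. Their log2 ratios on day 7 against the undifferentiated library lay between -0.20 and 0.00.

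The highest sums from the undifferentiated to the untreated library were in Palmd, Tet1, Dpyd and Plcd3. Palmd, the cytosolic protein palmdelphin, had 112 reads at 11 sites in the undifferentiated library, 249 in the untreated library and 183 with pargyline. Its log2 ratio was 0.86 in the untreated library (0.54 to 1.2) and 0.93 in the treated library (0.58 to 1.28). Tet1, a dioxygenase that oxidises 5-methylcytosine and is highly expressed in ESCs, had 102, 217 and 187 reads at 15 sites, of which 8, 13 and 10 were listed. Its ratio was 0.80 (0.45 to 1.15) in the untreated and 1.10 (0.74 to 1.46) in the treated library. With unlisted sites at 4 reads these became 0.50 and 0.89. Dpyd, which degrades pyrimidines, had 270, 563 and 367 reads (0.77 in the untreated library, 0.56 to 0.99), and Plcd3, a phospholipase C, 331, 646 and 365 reads (0.68, 0.48 to 0.87). Plcd3 was at 0.36 in the treated library (0.14 to 0.58), below its untreated value.

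The lowest sums from the undifferentiated to the untreated library were in Fam169a, Mpzl1, Cnnm4 and Plek. Mpzl1, a myelin protein zero-like membrane protein, had 411, 225 and 164 reads at 10 sites, with ratios of -1.16 (-1.40 to -0.92) in the untreated and -1.10 (-1.37 to -0.84) in the treated library. Cnnm4, a magnesium transporter, had 545, 322 and 259 reads (-1.05, -1.25 to -0.85), and Plek, the platelet protein pleckstrin, 446, 267 and 229 reads (-1.03, -1.25 to -0.81). Fam169a had 118, 64 and 60 reads, and its ratio of -1.17 in the untreated library became -0.85 with unlisted sites at 4 reads. In all 4 genes both day 7 libraries were below the undifferentiated one after scaling, in comparisons that share that library.

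In the treated library the highest sums against the undifferentiated library were in Onecut3, Barhl1, Nxph4 and Tet1. Onecut3, a paralog of Onecut2, had 182 reads in the undifferentiated library, 278 in the untreated library and 429 with pargyline at 21 sites. Its ratio was 1.46 (1.21 to 1.72) in the treated and 0.32 (0.05 to 0.60) in the untreated library. With unlisted sites at 4 reads these became 1.10 and 0.12. Barhl1 had 108, 130 and 224 reads at 10 sites, with 1.27 (0.94 to 1.62) in the treated and -0.02 in the untreated library. Nxph4, a neurexophilin secreted by neurons, had 120, 138 and 223 reads at 11 sites, with 1.12 (0.79 to 1.45), or 0.96 with unlisted sites at 4 reads, and -0.09. The genes were picked for high treated reads, so their high treated values are part of the selection. The untreated ratios of Barhl1 and Nxph4 were -0.02 and -0.09, whereas at Tet1 both day 7 libraries were above the undifferentiated one. Of the Barhl1 sites, all 10 lay outside low CpG windows, as did 6 of 21 in Onecut3, 4 of 15 in Tet1 and 1 of 11 in Nxph4.

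The lowest sums in the treated library were in Klf9, Lama4, Atp10a and Mpzl1. Klf9 had 328, 238 and 112 reads at 17 sites, with -1.33 (-1.65 to -1.01) in the treated and -0.75 (-1.0 to -0.51) in the untreated library. Lama4, the laminin alpha-4 chain of basement membranes, had 409, 288 and 156 reads at 12 sites (-1.17 in the treated library, -1.44 to -0.90). Atp10a, a phospholipid flippase, had 266, 207 and 103 reads at 10 sites (-1.15, -1.49 to -0.81). With unlisted sites at 4 reads the treated ratios became -0.96 in Klf9, -0.99 in Lama4 and -1.01 in Atp10a, so that Klf9 and Lama4 were no longer 2-fold lower. The genes were picked for low treated reads, which also enter the comparison with the untreated library. In Klf9, Lama4 and Atp10a the treated library was also below the untreated one, by log2 ratios of -0.58, -0.38 and -0.50. The same change took these to -0.25, -0.29 and -0.40.

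**Figure D5:**
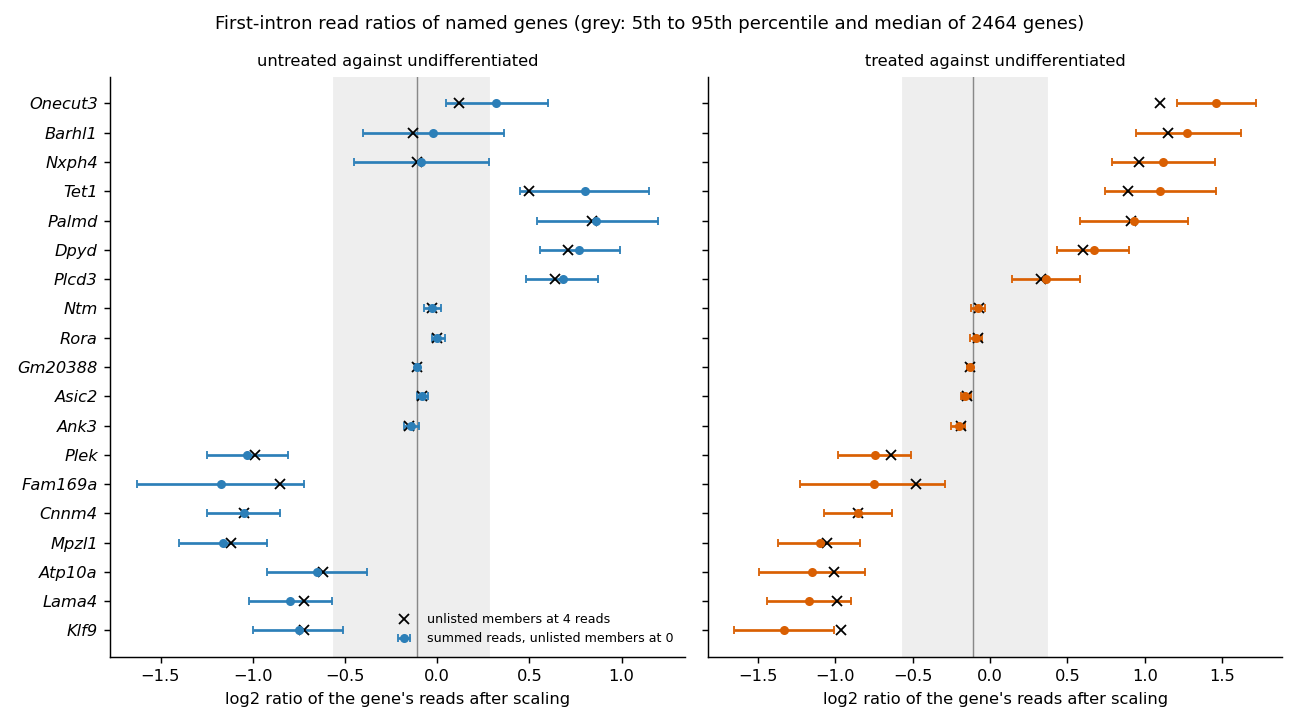
Log2 ratio of a gene's summed first-intron reads after scaling (x axes) for the named genes (y axis), from the undifferentiated to the untreated library (left, blue) and to the treated library (right, orange), with exact 95% intervals and, as crosses, the value with unlisted sites at 4 reads. Barhl1 and Nxph4 lie right of the grey 5th to 95th percentile band of all genes only in the treated panel, at 1.27 and 1.12, Onecut3 just beyond it in the untreated panel (0.32, but 0.12 with unlisted sites at 4 reads) and far beyond it in the treated one (1.46), and Mpzl1 left of it in both.

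The number of listed sites per gene showed further genes in which the treated library stood apart. Among the 2465 genes with at least 10 sites, the median difference in listed sites was 0.0 percentage points in each comparison. Between the undifferentiated and the treated library, the 5th and 95th percentiles were -18.2 and 17.6 points, and 29 genes gained and 22 lost at least 30 points. Nr2e1, an orphan nuclear receptor of neural stem cells, had 2 of its 10 sites listed in the undifferentiated library, 4 in the untreated and all 10 in the treated library. Its reads were 19, 48 and 126, and 9 of the 10 sites lay outside low CpG windows, 3.3 to 5.0 kb from the start. Lhx4, a LIM homeodomain transcription factor of pituitary and motor neuron development, had 4, 5 and 18 of its 18 sites listed, with 172, 174 and 238 reads, and 10 of them were outside low CpG windows. Onecut3 had 8, 13 and 21 of its 21 sites listed. Hrk, a pro-apoptotic BH3 protein, had 5, 6 and 11 of 11 sites listed with 181, 210 and 212 reads, all in low CpG windows. Nr2e1 and Lhx4 reached the minimum of 10 sites only through the treated library. Motifs that no library listed are not counted for any of these genes.

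In the opposite direction, Lama4 went from 12 listed sites to 8 and 7 of 12, and Klf9 from 15 to 14 and 8 of 17. In the untreated library against the undifferentiated one, 9 genes gained and 14 lost at least 30 points. Mybpc1, a myosin-binding protein, had 5, 10 and 10 of 11 sites listed, and Tet1 8, 13 and 10 of 15. Ednrb, the endothelin receptor B of neural crest cells, had 7, 11 and 7 of 11 sites listed, so that the treated library was at its undifferentiated number. Pirt, Pias1, Flt3 and Arhgap20 each went from 10 to 6 of 10 listed sites in the untreated library, and had 7, 8, 9 and 9 in the treated library. These genes were named for the largest differences after the values were seen.

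Gene groups were counted as lists that had been chosen with earlier results of these data known. Their shares are read against those of all first-intron sites with enough reads, of which 5.63% were higher and 12.1% lower from the undifferentiated to the untreated library, 10.9% and 12.3% to the treated library, and 4.88% and 1.55% from the untreated to the treated library. Calls of single genes are given without the number of their sites with enough reads, and cannot be read as shares. The pluripotency list had sites in 11 of its 40 genes, 189 in all. Of its sites with enough reads, 6 of 98 were called higher (6.12%) and 6 lower (6.12%) from the undifferentiated to the untreated library, close to the share of all first-intron sites for higher calls and below it for lower ones. From the undifferentiated to the treated library, 12 of 108 were higher (11.1%) and 4 lower (3.70%). Esrrb, an orphan nuclear receptor of the ESC network, held 110 of the sites with 2926, 3335 and 2360 reads in the undifferentiated, untreated and treated libraries. Its log2 ratios were -0.10 and -0.09 on day 7, near the median of genes. Il6st, the signalling subunit of the LIF receptor, had 738, 742 and 464 reads at 17 sites (-0.28 and -0.45), and Stat3, its transcription factor, 518, 593 and 367 reads (-0.09 and -0.27). Lifr, the LIF-binding subunit, had 289, 360 and 313 reads (0.03 and 0.34), and Sall4, a zinc finger factor, 122, 187 and 114 reads (0.33 and 0.12). The single site of Nanog, 3.3 kb from the start, was listed in the treated library alone with 11 reads, and is named here after its value was seen.

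The list of DNA methylation genes had the largest shares of higher calls among the lists, over few sites. Sites lay in 10 of its 25 genes. Between the undifferentiated and the untreated library, 8 of 51 sites were higher (15.7%) and 3 lower (5.88%), and from the undifferentiated to the treated library 16 of 54 were higher (29.6%, against 10.9% of all) and 3 lower (5.56%). From the untreated to the treated library 6 of 62 were higher (9.68%) and 4 lower (6.45%), against 4.88% and 1.55% of all. The median gene ratio of its 5 genes with at least 10 sites was 0.33 and 0.10, against -0.11 over all genes in both comparisons. Of the 16 higher sites, 3 lay in Tet1, 4 in Mbd5 and 4 in Tet2. The sums behind them were those of Mbd5, a methyl-CpG-binding domain protein, with 200, 312 and 334 reads at 13 sites (0.35 and 0.96), and of Tet2, with 408, 626 and 375 reads at 20 sites (0.33 and 0.10). The maintenance methyltransferase Dnmt1 had 221, 199 and 132 reads at 11 sites (-0.44 and -0.52), and the de novo methyltransferase Dnmt3a 438, 535 and 391 reads at 14 sites (0.00 and 0.06). Tet1 and Mbd5 were thus above 0 in both day 7 libraries, Dnmt1 was below 0 in both, and for Tet2 the interval in the treated library held 0 (-0.11 to 0.31). Tet1 stands in this list and in the pluripotency list.

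Genes of LSD1 complexes had 242 sites in 15 of 26 genes, and their calls were near those of all first-intron sites, with 9 of 157 higher (5.73%) and 22 lower from the undifferentiated to the untreated library. In the treated library against the undifferentiated one, 16 of 162 were higher (9.88%) and 19 lower (11.7%). Kdm1a, which encodes LSD1, had 3 sites with 94, 77 and 67 reads and no call. Gse1 had 2759, 3393 and 2192 reads at 96 sites (0.01 and -0.11) and Phf21a, a histone reader, 1663, 1793 and 1283 reads at 59 sites (-0.18 and -0.15). Of the 59 Phf21a sites, 8 were lower and 0 higher in the untreated library, and 7 lower and 1 higher in the treated library. Over all first-intron sites with enough reads, 12.1% and 12.3% were lower. Gatad2a, a subunit of NuRD, had 411, 686 and 481 reads at 17 sites (0.45 and 0.45). Mta1, another NuRD subunit, had 258, 217 and 227 reads at 8 sites, 3 of them called lower in the untreated library. Gatad2a thus lay above the gene median in both day 7 libraries, and Phf21a slightly below it.

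Retinoic acid genes had 299 sites in 19 of 37 genes. From the undifferentiated to the untreated library 11 of 184 were higher (5.98%) and 28 lower (15.2%), and to the treated library 20 of 194 were higher (10.3%) and 29 lower (14.9%). Over all first-intron sites the corresponding shares were 5.63% and 12.1%, and 10.9% and 12.3%. Of the genes with at least 10 sites, Ncoa3, a nuclear receptor coactivator, had the lowest ratio in the treated library, with 784, 695 and 387 reads at 30 sites (-0.46 and -0.80), 0 higher calls and 6 lower calls in the treated library. Rxra, a retinoid X receptor, had 1438, 1642 and 1257 reads at 50 sites (-0.10 and 0.03). Rxrg had 422, 603 and 464 reads at 15 sites (0.23 and 0.36). Ncoa2 and Nrip1 also had at least 3 called sites.

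Neural genes had 1089 sites in 21 of 45 genes, with 39 of 722 higher (5.40%) and 77 lower (10.7%) in the untreated library, and 85 of 780 higher (10.9%) and 95 lower (12.2%) in the treated library, close to the shares of all first-intron sites (5.63% and 12.1%, and 10.9% and 12.3%). From the untreated to the treated library 48 of 762 were higher (6.30%) and 12 lower (1.57%). Nfix held 6 of these 48 sites. Its 38 sites had 576, 578 and 642 reads, of which 19, 21 and 35 were listed, and its ratio was 0.65 (0.49 to 0.82) from the untreated to the treated library. Zeb2, a zinc finger factor of neural crest, had 1109, 1434 and 1181 reads at 40 sites (0.08 and 0.31), with 7 sites higher and 0 lower in the treated library. Foxp1, a forkhead factor, had 5338, 5804 and 3705 reads at 162 sites (-0.17 and -0.30), with 6 higher and 17 lower. The other genes with at least 3 calls in a comparison were Rbfox1, Rbfox2, Rbfox3, Ncam1, Tcf4, Foxp2, Gli2, Gli3, Auts2, Ebf3, Sox5 and Sox6, and their day 7 ratios lay between -0.29 and 0.08.

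Genes of neuronal adhesion and guidance, many with very long first introns, held 2754 sites in 48 of 50 genes. In the untreated library 109 of 1731 were higher (6.30%, against 5.63% of all first-intron sites) and 220 lower (12.7%, against 12.1%). In the treated library 252 of 1866 were higher (13.5%, against 10.9%) and 246 lower (13.2%, against 12.3%). Those with the most sites, Ntm, Opcml, Nrg1 and Lsamp, had 174 to 296 sites each and ratios between -0.08 and 0.03. Tenm3, a teneurin, was above the gene median, with 2455, 3314 and 2367 reads at 98 sites (0.14 and 0.17), and Magi2, a synaptic scaffold, below it, with 2536, 2575 and 1866 reads at 107 sites (-0.27 and -0.22). At least 3 calls in a comparison were also found in Cntn1, Cntn4, Cntn5, Cntn6, Cntnap2, Cntnap4, Cntnap5a, Csmd1, Csmd2, Dab1, Dcc, Dlg2, Epha6, Erbb4, Lingo2, Lrp1b, Negr1, Nlgn1, Nrg3, Nrxn3, Pcdh7, Pcdh9, Robo1, Sema5a, Sema6d, Slit3, Tenm2, Tenm4, Unc5c, Unc5d and Astn2.

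Endoderm genes had 180 sites in 14 of 31 genes, with 9 of 123 higher (7.32%) and 16 lower in the untreated library, and 18 of 136 higher (13.2%) and 21 lower (15.4%) in the treated library, where 10.9% and 12.3% of all first-intron sites were called. Foxa3, a forkhead factor of endoderm, had 257, 96 and 53 reads at 4 sites, 2 of them called lower in each day 7 library, and was named after its values were seen. Lrp2, the endocytic receptor megalin, had 367, 486 and 467 reads at 16 sites (0.12 and 0.57), and Gata4 224, 297 and 172 reads at 6 sites. Lamc1, Col4a1, Dab2 and Cdh2 also had at least 3 calls. Signalling genes had 763 sites in 32 of 47 genes and the lowest shares of higher calls in the treated library, with 40 of 531 (7.53%, against 10.9% of all) and 55 lower (10.4%, against 12.3%). In the untreated library 22 of 516 were higher (4.26%, against 5.63%) and 52 lower (10.1%, against 12.1%). Smad1 had 837, 649 and 521 reads at 22 sites (-0.66 and -0.46), and Tgfbr1, a TGF-beta receptor, 310, 167 and 115 reads at 6 sites (-1.18 and -1.21). Smad3, which lies in the same pathway as Tgfbr1, had 3737, 4032 and 2912 reads at 104 sites (-0.18 and -0.14). Ror1, Ror2, Bmpr1b, Gpc6, Acvr1, Acvr2a, Acvr2b and Apc also had at least 3 calls.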

How the data were processed

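Genomic DNA of 3 ESC libraries was profiled by MethylRAD sequencing, with 1 library per condition. Per the labels and the study's methods, the authors trimmed the reads, aligned them with Bowtie2 (version 2.3.3 in the submitters' processing notes, which also name FastQC 0.11.3) to the mouse genome of Ensembl release 93 allowing 1 mismatch and discarded reads without a unique position. They deposited a count of reads at each site that reached 5 reads. The deposited RPM is the same count scaled by the mapped reads of the library (about 50959902, 73712891 and 67235272 in the undifferentiated, untreated and treated library, as back-calculated from the rounded RPM values).

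From the deposited counts, autosomal CCGG sites were placed on GENCODE M21 basic gene models (GRCm38), and reference sequence and repeat masking were taken from RefSeq GRCm38.p6. The members and gene lists were chosen with earlier results of these data known. Ratios were scaled to the median of the sites listed in all 3 libraries, with unlisted sites at 4 reads, and in sums per gene at 0. A call needed a 3-fold change and 20 scaled reads. Genes named were the 5 with the most sites, the 4 highest and lowest sums per day 7 library, the 4 clusters with the most positions per direction, and list genes with a cluster, 3 called sites in a comparison, or, for pluripotency, DNA methylation and LSD1 genes, 10 sites. Some genes that this rule would name are not reported here. Others are marked as named after their values were seen. With 1 library per condition no test was made, and exact (Clopper-Pearson) 95% intervals cover counting error only. The calls and the annotation were tested on simulated data. Analyses ran in Python 3.11.15 with pandas 2.3.3 and numpy 2.4.6, intervals came from SciPy 1.17.1, and figures from matplotlib 3.10.9.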

Additional observations from a re-analysis of the deposited data

How the results depend on the processing

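No paired analysis was possible because there was 1 library per condition. Of 186 recomputed values, 95 stayed within 1.5 times the reported count, or within the 95% interval of the reported median, and 91 moved further. The comparisons are given in the order untreated against undifferentiated, treated against undifferentiated and treated against untreated, and the cause of each move was not tested beyond the construction of the alternative itself.

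With the deposited RPM the medians were -0.252, -0.644 and -0.37, with 2089, 2545 and 1305 sites higher. Lower sites were 15439 and 2413 in the second and last comparison. In the last comparison the majority thus went from higher to lower sites. Clusters were 0, 0 and 2 higher and 34, 122 and 2 lower. With counts thinned to the smallest total, there were 12 lower clusters in the first comparison, 12 higher in the second, and 3 higher and 0 lower in the last. At 2-fold, 8899, 13362 and 7647 sites were higher and 13389, 14853 and 4115 lower, with 36, 98 and 45 higher and 89, 98 and 5 lower clusters. At 4-fold, 1812, 4838 and 1860 sites were higher and 340 lower in the last comparison, with 0 and 7 higher and 5 and 7 lower clusters in the first and second. With at least 40 reads, 1671, 3562 and 1060 sites were higher and 3897, 4633 and 361 lower, with 0, 2 and 0 higher and 4, 6 and 0 lower clusters.

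With sites listed in both libraries only, clusters were 9 lower in the first comparison, 8 higher and 9 lower in the second, and 1 higher and 0 lower in the last. Over 1 kb from a start, there were 35 higher clusters in the second comparison and 23 higher and 2 lower in the last, where the median was 0.009. Over 10 kb from a start, 53020, 52639 and 52423 sites were listed in the undifferentiated, untreated and treated library, the first median was -0.001, and 2255, 4632 and 1917 sites were higher and 4744, 5106 and 606 lower, with 1, 11 and 4 higher and 12 and 8 lower clusters. With 2 positions per cluster there were 83, 346 and 94 higher and 360, 413 and 11 lower clusters, and with 4 positions 0, 2 and 2 higher and 1, 2 and 0 lower. Within 500 bp there were 1 and 5 higher and 5 and 4 lower clusters in the first and second comparison. Scaling within fragment GC, chosen after seeing the data, moved the second median to -0.009. With the first intron of every spanning transcript, 65866, 65502 and 65333 sites were listed and the first comparison had 14 lower clusters. With a minimum of 10 reads 74163, 73894 and 71335 were listed. Without Gm20388, also chosen after seeing the data, the second comparison had 16 higher clusters. These 3 alternatives moved no count by over 1.5 times.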

Other observations

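Single sites with the most reads in 1 or 2 libraries and none listed in the rest were read out after the values were seen. In the treated library alone, a site in Ssbp2 had 46 reads, one in C130026I21Rik 45 and one in Fhod3 41, and their fragments held 10, 13 and 11 G or C bases, and thus fell in the class with a median log2 ratio of 0.67 in the treated library. In both day 7 libraries but not before, a site in Ldlrad3 had 69 and 59 reads, one in Plcb1 78 and 47 and one in Castor2 64 and 59. In the undifferentiated library alone, a site in Pitpnc1 had 96 reads and one in Tenm4 86, although Pitpnc1 also held a cluster that gained reads. In the untreated library alone, sites in Runx1t1, Celf2 and Ank2 had 50, 47 and 47 reads.

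The deepest first-intron site lay in E030030I06Rik, with 2883, 4041 and 2603 reads in the undifferentiated, untreated and treated library. A site in Filip1l had 50, 541 and 472 reads and one in Tmem267 had 1217, 612 and 324.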
